A study of Mus musculus with 24 samples.

Results

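The comparison was between 4 late symptomatic and 4 asymptomatic libraries of glioma-surrounding cells, 8 of the 24 RNA libraries of a study of mouse gliomas. The libraries were taken by the endings of their column labels, which name the sorted population and the stage, and no measured value entered that choice. In each animal a tumour had been started in utero by somatic transfer of PDGFB, a growth factor of glial progenitors, into the ventricles of the telencephalon. Tumours were dissected from the brain under fluorescence, and non-fluorescent cells were sorted away from fluorescent glioma cells, so that 1 brain gave 1 library of each kind. The late animals showed symptoms and were taken after 100 days (tumour code 3057E), 120 days (3054A) or 175 days (3054B and 3054C). The asymptomatic animals were taken after 33 days (3228A, 3228B and 3228D) or 34 days (3229B). Glioma cells of 3057E carry a label for red fluorescence where those of the other brains carry one for GFP. A further 4 surrounding libraries from early symptomatic animals, taken after 35 to 50 days, entered the fit for its estimate of the spread and are in no group compared. Strain, sex and genotype are not given in the sources used here. No late library shares its code prefix or its days with an asymptomatic one, so stage, age of the animal and code prefix cannot be told apart.

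The non-malignant tissue of a glioma holds microglia, the resident macrophages of the brain, with macrophages and other leukocytes that enter from the blood, and astrocytes, oligodendrocytes, neurons and vessel cells. Interferons act on all of these and induce antiviral genes together with the machinery that presents peptides on MHC molecules. Cells short of oxygen stabilise HIF transcription factors, which induce glycolytic enzymes and their own feedback inhibitor Egln3. Oligodendrocyte progenitor cells (OPCs) are the dividing glial progenitors marked by Pdgfra, Olig2 and Sox10, and PDGFB-driven gliomas express many of the same genes.

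The sorted population was checked against its markers. The level of a gene list is the mean log2(CPM + 1) of its genes, where CPM are counts scaled to the depth of each library. Lists and their members were chosen with earlier results of these data known. Counts of a list set beside those of all genes therefore describe the list and test nothing. Genes of homeostatic microglia (14 genes such as P2ry12 and Gpr34) were at 8.89, 9.07, 9.21 and 6.47 in the late libraries 3054A, 3054B, 3054C and 3057E, and at 9.37, 8.65, 9.29 and 9.14 in the asymptomatic libraries 3228A, 3228B, 3228D and 3229B, which is the order of all values below. Library 3057E was low, and its level lay beside the 6.42 of the glioma cells of its own brain, where the other 11 glioma libraries were at 2.47 to 5.10. The OPC list (17 genes) was at 7.80, 6.88, 5.26 and 9.21 in the late and at 8.59, 8.72, 9.36 and 8.0 in the asymptomatic libraries, so that 3057E lay with the asymptomatic libraries and near the 9.61 of its glioma cells. Over 2-fold differences between the 2 sorted populations of a brain covered 12.0% of the genes in 3057E and 38.0% to 40.2% in 3054A, 3054B and 3054C. That share was 13.6% (3228D) to 30.7% (3229B) in the asymptomatic brains and 16% (3108D) to 27.7% (3108C) in the early symptomatic ones. The share of 3057E was thus the lowest, near that of 3228D, and 3054A, 3054B and 3054C had the highest. Library 3229B was high in mature oligodendrocyte genes, at 9.64 against 7.24 to 8.05 in the other asymptomatic libraries, and in neuron genes, at 5.34 against 2.91 to 3.22. Mitochondrial transcripts took 30.3% of its counts against 10.9%, 13.4% and 11.9% in 3228A, 3228B and 3228D. That share was 14.1%, 20% and 17.5% in 3054A, 3054B and 3054C and 7.7% in 3057E, so that it also went with the groups left after 3057E and 3229B are taken out, and its part in the results was not tested. The 10 most abundant genes took 18.9% to 21.7% of the counts in 3054A, 3054B and 3054C and 11% to 14.7% in 3228A, 3228B and 3228D. Fold changes between the stages are therefore given with all libraries and without codes 3057E and 3229B. A log2 fold change given as with all libraries did not pass the test, since the smallest edgeR adjusted p there was 0.0827. Totals ranged from 9080000 to 15500000 counts per library, and by Xist and Ddx3y the late animals were 2 females and 2 males and the asymptomatic animals 1 female and 3 males. A bulk sample cannot tell fewer cells of a type from less RNA per cell.

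**Figure D1:**
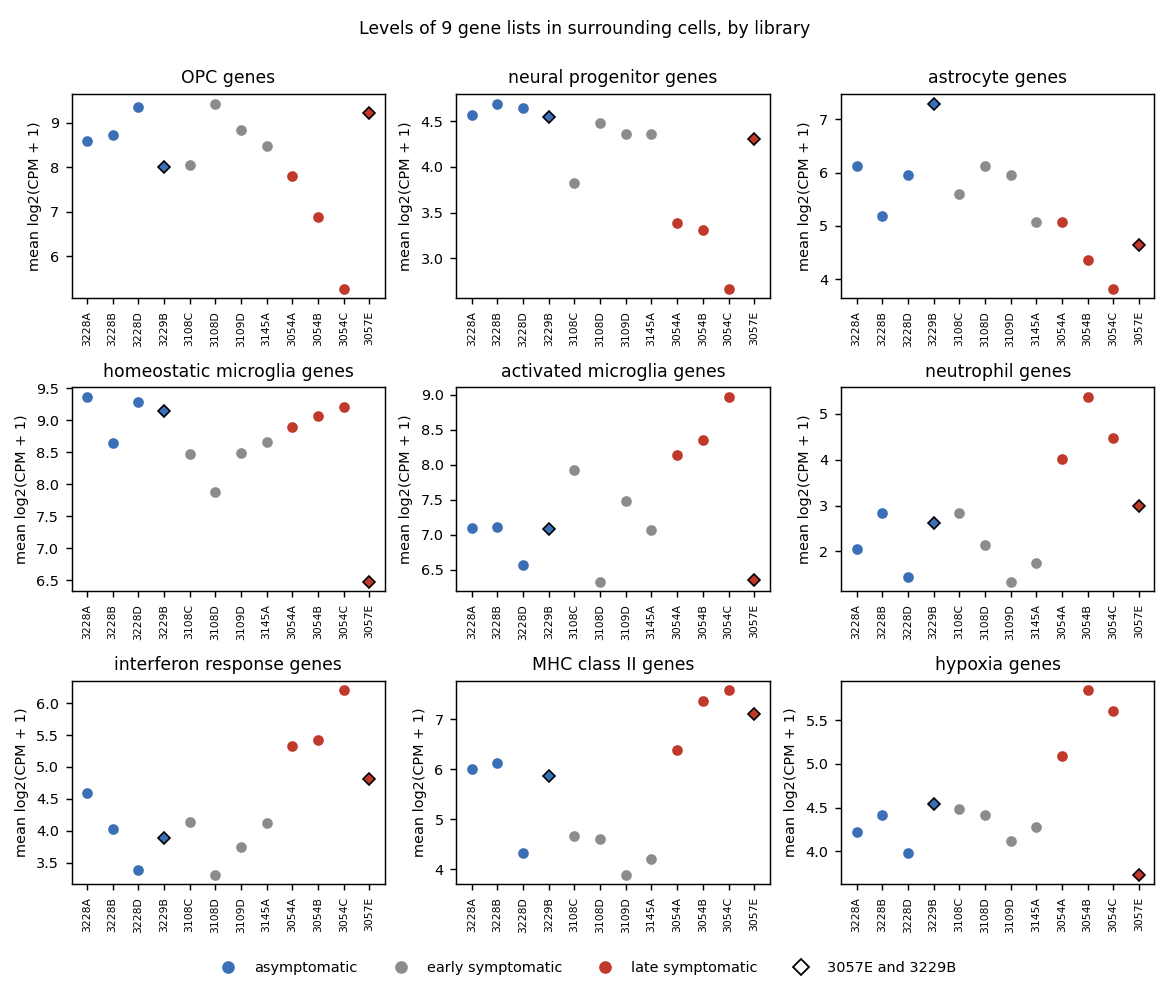
Level of 9 gene lists (mean log2(CPM + 1), vertical axis of each panel) in the 12 surrounding libraries (horizontal axis, 1 point per library, coloured by stage). Diamonds mark 3057E and 3229B. Interferon genes were higher in all 4 late libraries than in any other library, whereas hypoxia and activated microglia genes were high in 3054A, 3054B and 3054C and low in 3057E, and OPC genes were low in the same 3 libraries.

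With all libraries, 0 of 17616 genes tested (0%) passed an adjusted p of 0.05 in the edgeR quasi-likelihood test, with Benjamini-Hochberg adjustment. That smallest adjusted p of 0.0827 in the edgeR test was shared by the complement gene C4b and the pericyte gene Rgs5. At an unadjusted p of 0.05 there were 1699 genes higher and 1123 lower in the late libraries. DESeq2 called 703 higher and 299 lower, and limma voom, which gave 3057E and 3229B the lowest sample weights (0.236 and 0.347), called 2049 higher and 2057 lower. Without codes 3057E and 3229B, 1133 genes rose, 6.35% of the 17833 tested, and 1450 fell, 8.13%. Changes were over 2-fold in 955 and 1248 of them. Leaving out 3057E alone gave 1368 higher and 1594 lower genes, and leaving out 3229B alone gave 0 in each direction.

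The counts without the 2 codes rest on 3 libraries a group and moved with single libraries. They fell to 0 higher and 0 lower when 3228D was also left out, to 208 and 276 without 3054B, to 265 and 514 without 3228A, to 329 and 548 without 3054C and to 413 and 644 without 3228B. They were 1600 and 2315 without 3054A, 1937 and 2006 without 3108C, and 848 and 960 without 3109D. Of the genes that rose 88.3% were protein-coding, and of those that fell 93.8%, beside 79.8% of all tested. A count that no fit enters is of genes whose 4 late libraries all lay above the 4 asymptomatic libraries, which were 496 (2.82% of 17616), or all below, which were 558 (3.17%).

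**Figure D2:**
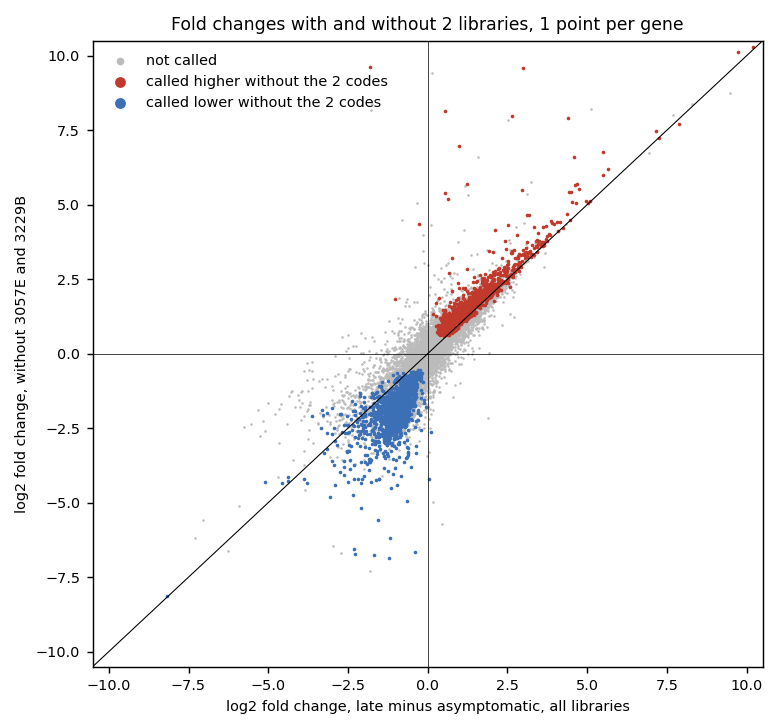
Log2 fold change of late minus asymptomatic surrounding cells with all libraries (horizontal axis) and without 3057E and 3229B (vertical axis), 1 point per gene tested in both fits. The line marks equal values; red and blue points are the genes called higher and lower without the 2 codes, and the blue points lie mostly below the line, where the fold was larger without those codes.

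The libraries left out took no part in these calls and can be set beside them. For each called gene the midpoint between the mean log2(CPM + 1) of the 3 late and the 3 asymptomatic libraries was used. Among the 1133 genes that rose, 3057E lay on the late side of it in 123 (10.9%) and 3229B in 187 (16.5%). Among the 1450 that fell, 3057E lay on the late side in 79 (5.45%) and 3229B in 361 (24.9%). Since 3057E was left out for standing apart from its group, these counts describe where it lay and test nothing.

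Interferon response genes were higher in all 4 late libraries. The level of the 37 genes was 5.32, 5.42, 6.21 and 4.81 in the late and 4.58, 4.03, 3.38 and 3.88 in the asymptomatic libraries, and 4.13, 3.30, 3.75 and 4.12 in the early symptomatic ones. The lowest late library, 3057E, lay above all 8 others. In 26 of the 37 genes the 4 late libraries all lay above the 4 asymptomatic ones, beside 2.82% of all genes. The median log2 fold change was 1.53 in all libraries, where the median of all genes was -0.00132, and 1.70 without the 2 codes. Without those codes 29 of the 37 rose, beside 6.35% of all genes, and 0 fell. For 13 of these 29, 3057E lay on the late side of the midpoint.

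Ifit1, which binds viral RNA and blocks its translation, was at 47.4, 47.6, 90.4 and 50.8 CPM in the late libraries and at 26.6, 10.6, 8.58 and 12.2 CPM in the asymptomatic ones. The groups did not overlap, and 3054C was the highest library. Its log2 fold change was 2.04 ± 0.40 (SE) with all libraries (edgeR adjusted p = 0.13) and 2.05 ± 0.48 without the 2 codes (edgeR adjusted p = 0.0253). Its neighbour Ifit3 was at 99.7, 66.6, 174 and 101 CPM against 51.04, 27.6, 22.4 and 34.8 CPM, again without overlap. It rose by 1.78 ± 0.43 without the 2 codes (edgeR adjusted p = 0.0268) and had 1.71 ± 0.36 with all libraries (edgeR adjusted p = 0.13). Irgm1, a GTPase of the defence against intracellular pathogens, was at 66.1, 76.3, 101 and 69.1 CPM in the late libraries and 44.97, 42.02, 26.7 and 35.6 CPM in the asymptomatic ones, a narrower difference that was still free of overlap. It rose by 1.13 ± 0.24 (edgeR adjusted p = 0.0189, against 1.08 with all libraries). Gbp7, a guanylate-binding protein, was at 93.7, 108, 122 and 43.5 CPM against 47.4, 40.9, 28.4 and 26.3 CPM. Here 3057E fell short of 3228A, and the rise without the 2 codes was 1.5 ± 0.22 (edgeR adjusted p = 0.0111, against 1.37 with all libraries).

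The promoters of these genes hold the interferon-stimulated response element, a site that IRF factors bind. It was searched on both strands as GAAA, any 2 bases and GAAA again, over the 250 bases before each start of RefSeq's promoter table on GRCm38.p6, where 3.46% of 27025 genes held any match. In the pieces below, matches that overlap were counted on the strand of the gene only. Of the interferon list 28 of 37 genes were in that table, too few for a share of the list. The following 100 bases, 5′ to 3′ on the strand of the gene, are shown because each of these 4 interferon genes holds the element and rose without the codes. Capitals mark the matches, which read TTTC, 2 bases and TTTC where they lie on the opposite strand.
Ifit1 (chr19:34640734-34640833, plus strand): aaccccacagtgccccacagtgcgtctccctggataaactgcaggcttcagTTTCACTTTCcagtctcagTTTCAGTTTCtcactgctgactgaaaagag
Ifit3 (chr19:34583337-34583436, plus strand): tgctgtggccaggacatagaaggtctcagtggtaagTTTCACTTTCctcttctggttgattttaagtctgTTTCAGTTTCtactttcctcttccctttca
Irgm1 (chr11:48871421-48871520, minus strand): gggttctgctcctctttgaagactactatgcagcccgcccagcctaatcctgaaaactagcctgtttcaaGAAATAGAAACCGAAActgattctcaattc
Gbp7 (chr3:142530213-142530312, plus strand): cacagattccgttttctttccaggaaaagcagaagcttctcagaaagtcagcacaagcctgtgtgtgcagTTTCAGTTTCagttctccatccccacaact
Ifit1 and Ifit3 each had 2 separate matches, Irgm1 had 2 that overlap, and Gbp7 had 1. Ifit1 (chr19:34640871-34650009) and Ifit3 (chr19:34583531-34588731) are neighbours on chromosome 19. A match is a run of letters and says nothing of what binds there in these cells.

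Genes that load and present peptides on MHC class I were higher in 3054A, 3054B and 3054C. Their level was 6.81, 7.25, 7.63 and 5.95 in the late and 6.26, 5.79, 5.49 and 5.87 in the asymptomatic libraries, with 3057E inside the asymptomatic range and on the late side of the midpoint in 1 of the 13 genes that rose. Of 19 genes 13 rose and 0 fell without the 2 codes, beside 6.35% of all genes that rose, and the median log2 fold change was 1.36 (1.14 with all libraries). H2-Q7, a class I heavy chain, was at 43.4, 98.6, 80.96 and 29.8 CPM in the late and 18.9, 12.9, 11.1 and 19.99 CPM in the asymptomatic libraries. With no overlap between the groups, it rose by 2.40 ± 0.43 without the 2 codes (edgeR adjusted p = 0.015), with 2.0 ± 0.42 in all libraries (edgeR adjusted p = 0.13). H2-T22, another heavy chain, was at 55.3, 84.1, 91.8 and 34.97 CPM against 34.5, 31.8, 26.4 and 28.9 CPM and rose by 1.35 ± 0.22 (edgeR adjusted p = 0.0134, against 1.13 with all libraries). Library 3057E stood just above the highest asymptomatic library there. Nlrc5, the transactivator of class I genes, was at 27.9, 23.1, 24.3 and 23.8 CPM against 14.5, 9.47, 5.89 and 5.42 CPM. The 4 late libraries were nearly level, 3057E among them, and all above the asymptomatic ones; it rose by 1.37 ± 0.36 (edgeR adjusted p = 0.0351, against 1.51 with all libraries). Psmb9, a subunit of the immunoproteasome that cuts the peptides, was at 19.1, 25.8, 54.9 and 13.2 CPM against 13.2, 11.4, 6.54 and 11.5 CPM. Library 3057E was level with 3228A, and the rise without the codes was 1.70 ± 0.40 (edgeR adjusted p = 0.0255, against 1.4 with all libraries). The class I genes are near copies of each other, so the division of their reads is an estimate.

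MHC class II genes, which serve antigen-presenting cells, were higher in the late libraries with a wide spread among asymptomatic ones. The level of the 10 genes was 6.38, 7.37, 7.58 and 7.11 against 6.01, 6.13, 4.32 and 5.87, so that the groups did not overlap and 3228D was the lowest library. The median log2 fold change was 1.69 with all libraries and 1.62 without the 2 codes, when 3 of 10 rose, beside 6.35% of all genes. Cd74, the invariant chain, was at 868, 1940.0, 2166 and 1752 CPM against 642, 811, 83.0 and 546 CPM. The groups did not overlap, but 3228D was far below its group, and 1.73 ± 0.68 did not pass the test (edgeR adjusted p = 0.106, against 1.70 with all libraries). H2-DMb2, which edits the bound peptide, was at 16.4, 39.1, 37.2 and 24.5 CPM against 10.8, 9.56, 3.27 and 8.79 CPM and rose by 2.0 ± 0.49 (edgeR adjusted p = 0.0269, against 1.86 with all libraries). For H2-Aa, a class II alpha chain, the difference of 2.01 ± 0.68 did not pass (edgeR adjusted p = 0.0674, against 1.88 with all libraries), with 317, 1008, 1018 and 886 CPM against 229, 326, 37.6 and 285 CPM. Only the late library 3054A lay below the highest asymptomatic library.

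Markers of dendritic cells, the migrating cells that present antigen to T cells, were highest in 3057E, 3054C and 3054B, with 3054A inside the asymptomatic range. The list level was 3.41, 4.05, 4.49 and 4.70 in the late and 3.42, 3.81, 2.45 and 3.14 in the asymptomatic libraries, which overlapped, and in 4 of 12 genes the late libraries all lay above, beside 2.82% of all genes. Without the 2 codes 1 of the 12 rose and 1 fell, near the 6.35% and 8.13% of all genes. Flt3, the receptor that drives dendritic cell growth, was at 20.3, 56.1, 37.3 and 41.97 CPM against 7.85, 18.8, 2.398 and 6.04 CPM and rose by 2.01 ± 0.61 (edgeR adjusted p = 0.0497, against 2.17 with all libraries). Itgae was at 21.99, 56.2, 80.9 and 63.3 CPM against 10.04, 20.9, 4.14 and 8.35 CPM, with no overlap, and 2.21 ± 0.75 did not pass (edgeR adjusted p = 0.0674, against 2.37 with all libraries). Ccr7, the receptor by which these cells reach lymph nodes, was at 8.08, 25.2, 18.1 and 12.2 CPM against 2.95, 6.43, 0.799 and 4.89 CPM, also with no overlap and short of the threshold at 2.37 ± 0.72 (edgeR adjusted p = 0.0504, against 2.08 with all libraries). Fscn1, an actin bundler also found in neural cells, went the other way, at 113, 137, 105 and 143 CPM against 247, 237, 246 and 182 CPM. Every late library was below every asymptomatic one, and it fell by 1.0 ± 0.18 (edgeR adjusted p = 0.015, against -0.85 with all libraries). Among T and NK cell markers 1 of 15 tested rose without the codes, near the 6.35% of all genes. It was the chemokine Ccl5, at 22.5, 54.1, 97.4 and 16.97 CPM against 10.6, 7.25, 5.96 and 15.99 CPM. It rose by 2.89 ± 0.81 (edgeR adjusted p = 0.0411, against 2.24 with all libraries). The coreceptor Cd8a was at 1.54, 5.24, 2.45 and 11.4 CPM against 2.11, 1.32, 0.872 and 1.86 CPM, with 3057E the highest library and a difference without the codes of 1.13 ± 0.61 that did not pass (edgeR adjusted p = 0.225, against 1.75 with all libraries).

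C4b, a complement component, was at 642, 905, 546 and 306 CPM in the late libraries and 146, 139.6, 68.03 and 72.8 CPM in the asymptomatic ones. All late libraries were above all asymptomatic ones, and the early symptomatic libraries, at 276, 359.9, 361 and 311 CPM, were all above the asymptomatic ones and below 3054A, 3054B and 3054C. The log2 fold change was 2.51 ± 0.36 with all libraries (edgeR adjusted p = 0.0827), and it rose by 2.60 ± 0.32 without the 2 codes (edgeR adjusted p = 0.0098). Rgs5, a pericyte gene that damps G protein signals, was at 4.63, 5.58, 7.42 and 4.69 CPM against 33.2, 17.1, 32.8 and 35.4 CPM. All late libraries were below all asymptomatic ones; the log2 fold change was -2.41 ± 0.36 (edgeR adjusted p = 0.0827) with all libraries, and it fell by 2.21 ± 0.42 without the codes (edgeR adjusted p = 0.0158). It was the 1 gene of 10 tested pericyte and smooth muscle genes that fell, near the 8.13% of all genes, and 0 of the 10 rose. Most of that list went the other way, with 7 of the 10 positive with all libraries. Its median log2 fold change was 1.16 without the codes and 1.04 with all libraries. Among 15 endothelial genes 0 passed. C4b (chr17:34728380-34743882), H2-Q7 (chr17:35439155-35443773), H2-T22 (chr17:36037128-36042747) and H2-DMb2 (chr17:34143307-34151555) lie in the major histocompatibility complex of chromosome 17 (GRCm38).

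The level of the complement list as a whole was higher in 3054A, 3054B and 3054C. Of 18 tested 8 rose without the codes and 0 fell, beside 6.35% and 8.13% of all genes, with a median log2 fold change of 1.65 (1.35 with all libraries). C3, the central component, was at 89.5, 103, 162 and 35.9 CPM against 33.2, 46.4, 11.8 and 13.9 CPM. Library 3057E lay between the highest asymptomatic libraries, and the gene rose by 1.99 ± 0.49 (edgeR adjusted p = 0.0277, against 1.91 with all libraries). C1ra, a protease that starts the cascade, was at 8.44, 9.04, 14.8 and 1.79 CPM against 2.95, 1.81, 1.89 and 2.58 CPM, where 3057E was the lowest of the 8. It rose by 2.30 ± 0.35 (edgeR adjusted p = 0.0122, against 1.88 with all libraries). For C2 the rise was 2.75 ± 0.62 (edgeR adjusted p = 0.0228, against 2.46 with all libraries), from 1.69, 1.65, 1.45 and 1.24 CPM in the asymptomatic to 15.3, 7.58, 8.56 and 1.56 CPM in the late libraries, with 3057E again among the asymptomatic values.

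Chemokines and NF-κB target genes were for the most part higher in 3054A, 3054B and 3054C. The chemokine level was 3.92, 4.59, 5.04 and 3.27 against 3.21, 3.19, 2.81 and 3.39, and that of NF-κB genes 5.71, 6.52, 6.34 and 5.14 against 5.14, 5.23, 4.86 and 4.85. Library 3057E lay inside the asymptomatic range of both, and on the late side of the midpoint in 1 of 12 and 1 of 9 genes that rose. Of 18 chemokine ligands tested without the codes 12 rose and 2 fell, and of 15 genes of NF-κB and its feedback 9 rose and 0 fell, beside 6.35% and 8.13% of all genes. Cxcl2, which draws neutrophils, was at 72.1, 317, 123 and 13.02 CPM in the late libraries and 3.71, 11.1, 1.16 and 4.89 CPM in the asymptomatic ones. The groups did not overlap, though 3057E stood close to 3228B, and it rose by 5.04 ± 0.87 (edgeR adjusted p = 0.0142), with 4.66 ± 0.92 in all libraries (edgeR adjusted p = 0.13). Its neighbour on chromosome 5, Cxcl1, was at 4.16, 22.4, 7.86 and 1.79 CPM against 0.169, 0.494, 0 and 0.711 CPM, low throughout the asymptomatic libraries. It rose by 5.69 ± 0.98 (edgeR adjusted p = 0.0144, against 4.69 with all libraries). Cxcl13, which draws B cells, was at 7.61, 16.9, 10.1 and 0.744 CPM against 1.01, 0.412, 0.363 and 0.888 CPM, so that 3057E lay among the asymptomatic libraries. The rise without the codes was 4.29 ± 0.53 (edgeR adjusted p = 0.0098, against 3.71 with all libraries). Ccl22, made by dendritic cells, was at 5.23, 15.6, 16.6 and 12.3 CPM against 4.56, 4.61, 2.98 and 2.75 CPM with no overlap and with 3057E well inside the late range, and rose by 1.65 ± 0.46 (edgeR adjusted p = 0.0398, against 1.75 with all libraries).

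Il1b, the inflammatory cytokine, was at 189.6, 447, 394 and 187 CPM in the late and 79.05, 128, 16.4 and 74.3 CPM in the asymptomatic libraries. All late libraries were the higher ones, and it rose by 2.24 ± 0.58 without the codes (edgeR adjusted p = 0.0327, against 2.04 with all libraries). Birc3, an NF-κB target that blocks cell death, was at 44.7, 69.2, 51.8 and 29.8 CPM against 23.6, 23.2, 13.7 and 14.8 CPM, also with no overlap, and rose by 1.49 ± 0.44 (edgeR adjusted p = 0.0472, against 1.39 with all libraries). Nfkbie, an inhibitor of NF-κB, rose by 0.86 ± 0.25 (edgeR adjusted p = 0.0451, against 0.87 with all libraries). Cd274, the ligand of the T cell checkpoint PD-1, was at 42.2, 108, 72.8 and 14.1 CPM against 12.8, 10.1, 9.67 and 4.71 CPM. Library 3057E was the lowest late library and stood barely above 3228A. Cd274 rose by 2.80 ± 0.53 (edgeR adjusted p = 0.0158), with 2.68 ± 0.60 in all libraries (edgeR adjusted p = 0.13). It was 1 of 3 checkpoint genes of 14 tested that rose, and 1 fell, beside 6.35% and 8.13% of all genes.

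**Figure D3:**
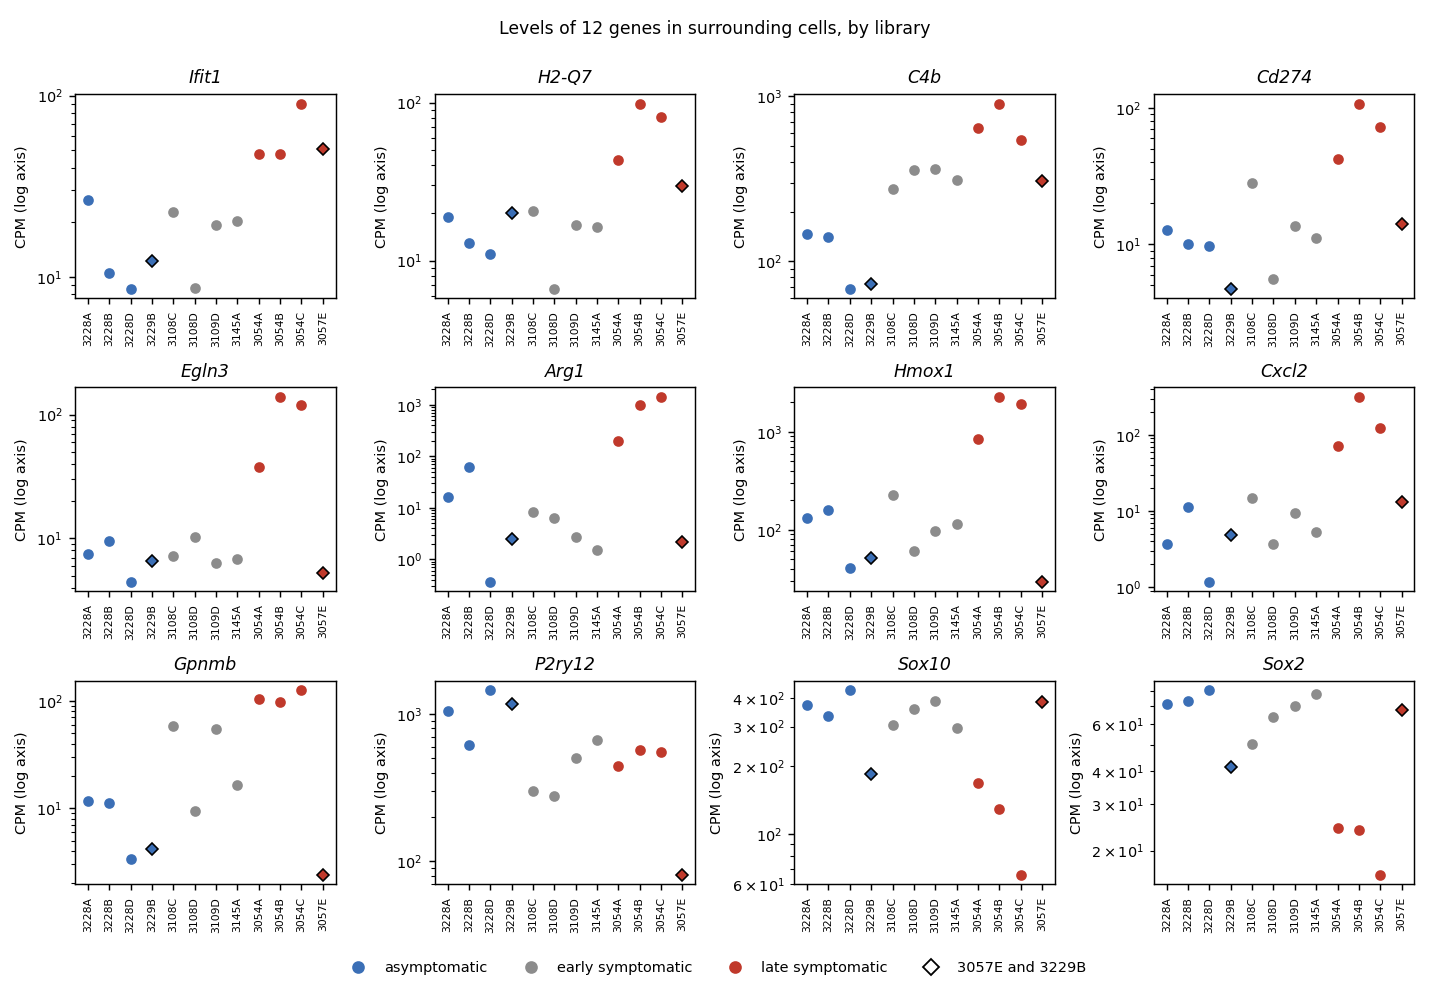
CPM on a log axis of 12 genes in the 12 surrounding libraries (1 point per library, coloured by stage; diamonds mark 3057E and 3229B). Ifit1, H2-Q7, C4b, Cd274 and Cxcl2 were higher in all 4 late than in all 4 asymptomatic libraries, P2ry12 was lower, and for Egln3, Arg1, Hmox1, Gpnmb, Sox10 and Sox2 library 3057E lay with the asymptomatic libraries.

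Genes of hypoxia and glycolysis rose without the codes, and 3057E did not share the difference. The hypoxia level (22 genes) was 5.10, 5.85, 5.61 and 3.72 in the late and 4.22, 4.41, 3.97 and 4.54 in the asymptomatic libraries, so that 3057E was the lowest of the 8 while the other late libraries were the highest. Without the codes 12 of 22 hypoxia genes rose and 0 fell, and 13 of 19 glycolytic genes rose and 1 fell, beside 6.35% and 8.13% of all genes. The median log2 fold changes were 1.46 and 1.41, and with all libraries 1.08 and 1.25. In 0 of the 12 and 1 of the 13 risen genes did 3057E lie on the late side of the midpoint. Egln3, the prolyl hydroxylase that marks HIF for destruction, was at 37.4, 139.6, 119 and 5.21 CPM against 7.51, 9.47, 4.43 and 6.57 CPM. It was high in 3054B and 3054C, intermediate in 3054A and at the asymptomatic level in 3057E, and rose by 3.82 ± 0.48 (edgeR adjusted p = 0.0098), with 3.43 ± 0.72 in all libraries (edgeR adjusted p = 0.13). Hilpda, a lipid droplet protein induced by HIF and outside the hypoxia list, was at 22.8, 114, 65.6 and 4.46 CPM against 4.303, 6.097, 4.58 and 4.62 CPM, and rose by 3.78 ± 0.55 (edgeR adjusted p = 0.0112, against 3.40 with all libraries). The order of the late libraries was that of Egln3. Ero1l, an oxidase of disulfide formation, was at 124, 282, 284 and 43.4 CPM against 49.95, 53.1, 40.1 and 34.5 CPM and rose by 2.30 ± 0.30 (edgeR adjusted p = 0.0108, against 2.05 with all libraries). Adm, the vasodilator adrenomedullin, rose by 1.93 ± 0.39 (edgeR adjusted p = 0.0177, against 1.81 with all libraries), and P4ha2, a collagen prolyl hydroxylase, by 3.42 ± 0.71 (edgeR adjusted p = 0.0188, against 3.07 with all libraries).

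Among glycolytic enzymes Gpi1, the glucose phosphate isomerase, was at 451, 699.7, 690.3 and 220.2 CPM against 235, 225, 143 and 198 CPM. Library 3057E lay inside the asymptomatic range, and the rise was 1.64 ± 0.28 (edgeR adjusted p = 0.0137, against 1.37 with all libraries). Pkm, the pyruvate kinase of the final step, was at 887, 1451, 1682 and 364 CPM against 432, 509, 314 and 319 CPM and rose by 1.71 ± 0.31 (edgeR adjusted p = 0.015, against 1.49 with all libraries). Slc16a3, the transporter that exports lactate, was at 45.8, 113, 142 and 5.73 CPM against 16.2, 16.9, 5.38 and 7.55 CPM, with 3057E near the lowest asymptomatic library. It rose by 2.99 ± 0.58 (edgeR adjusted p = 0.0169, against 2.74 with all libraries). Pfkp, a phosphofructokinase, showed a smaller rise of 0.85 ± 0.22 (edgeR adjusted p = 0.0323, against 0.83 with all libraries).

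The core of the hypoxia response element, ACGTG, was searched on both strands over the same promoter windows. It was present in 18.5% of all 27025 genes, in 13 of the 18 hypoxia genes with a promoter (72.2%) and in 9 of 19 glycolytic genes (47.4%). The hypoxia list was drawn up from genes known as HIF targets. The following pieces of 100 bases show it in capitals for 2 genes that rose.
Egln3 (chr12:54204025-54204124, minus strand): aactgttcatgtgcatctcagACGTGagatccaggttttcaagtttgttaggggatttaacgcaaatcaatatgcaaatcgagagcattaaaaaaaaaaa
Slc16a3 (chr11:120948967-120949066, plus strand): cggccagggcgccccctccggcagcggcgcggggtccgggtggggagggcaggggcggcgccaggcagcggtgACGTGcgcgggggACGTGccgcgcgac
Egln3 had 1 match and Slc16a3 had 2 on the strand of the gene, in sequences that RefSeq gives on GRCm38.p6.

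Genes with large rises without the codes included the following enzymes, proteases and secreted proteins. Hmox1, the enzyme that breaks down heme, was at 847, 2284, 1903 and 29.2 CPM in the late and 131, 158, 40.8 and 51.3 CPM in the asymptomatic libraries. Library 3057E was the lowest of all 8, and the gene rose by 3.96 ± 0.64 (edgeR adjusted p = 0.0132, against 3.75 with all libraries). Arg1, the arginase of suppressive macrophages, was at 199.9, 1011, 1445 and 2.16 CPM against 16.1, 61.3, 0.363 and 2.49 CPM. The asymptomatic libraries were themselves far apart, and it rose by 5.13 ± 1.32 (edgeR adjusted p = 0.0324, against 5.08 with all libraries). Nos2, the inducible nitric oxide synthase, rose by 4.01 ± 0.63 (edgeR adjusted p = 0.0126, against 3.82 with all libraries), from 2.87, 1.81, 3.12 and 1.07 CPM to 11.1, 81.1, 32.9 and 0.595 CPM, again without 3057E. The metalloprotease gene Adam8, at 86.5, 211, 158 and 9.599 CPM against 5.91, 19.5, 1.45 and 0.977 CPM, rose by 4.12 ± 1.13 (edgeR adjusted p = 0.0374, against 4.09 with all libraries), Lcn2, an iron-binding protein of neutrophils and reactive astrocytes, by 5.66 ± 1.12 (edgeR adjusted p = 0.0176, against 4.63 with all libraries), and the matrix protein gene Ccn2 by 4.06 ± 0.90 (edgeR adjusted p = 0.0222, against 3.47 with all libraries).

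Neutrophil markers had the largest list median, 3.73 without the codes and 2.94 with all libraries, and 4 of 8 tested rose, beside 6.35% of all genes. The list level was 4.02, 5.37, 4.47 and 2.99 against 2.06, 2.84, 1.44 and 2.63, so that 3057E was the lowest late library and still above all asymptomatic ones. S100a8 and S100a9, the subunits of calprotectin, were at 39.8, 98.9, 58.3 and 9.897 CPM and 66.4, 129.6, 82.5 and 18.6 CPM in the late libraries. In the asymptomatic libraries they were at 1.69, 5.11, 1.31 and 15.5 CPM and 3.63, 11.6, 2.91 and 24.2 CPM, where 3229B exceeded 3057E. They rose by 4.64 ± 0.69 and 3.98 ± 0.81 (edgeR adjusted p = 0.0114 and 0.0183, against 3.10 and 2.79 with all libraries). Mmp8, a neutrophil collagenase, was at 26.03, 129, 27.4 and 4.09 CPM against 0.844, 2.97, 0.291 and 2.93 CPM and Cxcr2, the receptor of Cxcl2, at 34.8, 53.2, 28.6 and 4.02 CPM against 2.11, 2.801, 0.654 and 1.69 CPM. Neither overlapped between the groups, and they rose by 5.52 ± 1.05 and 4.43 ± 1.01 (edgeR adjusted p = 0.0158 and 0.0239, against 4.73 and 4.07 with all libraries).

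Markers of monocytes and border macrophages, myeloid cells of the blood and of the brain's coverings, were higher in 3054A, 3054B and 3054C. Their level was 6.13, 6.53, 7.02 and 4.66 against 4.38, 5.35, 3.07 and 4.26, with 3057E below 3228B and on the late side of the midpoint in 1 of the 8 genes that rose. Of 18 genes 8 rose, beside 6.35% of all genes, and 0 fell, with a median log2 fold change of 2.21 (1.65 with all libraries). Ms4a6c was at 191, 271, 414 and 74.8 CPM against 45.9, 69.8, 10.7 and 45.4 CPM, without overlap, and rose by 2.83 ± 0.70 (edgeR adjusted p = 0.029, against 2.47 with all libraries). F13a1, a coagulation factor of macrophages, was at 217, 345, 389 and 16.7 CPM against 13.5, 73.2, 3.05 and 17.6 CPM, with 3057E at the asymptomatic level. It rose by 3.45 ± 0.96 (edgeR adjusted p = 0.0392, against 3.20 with all libraries). Plac8, a gene of monocytes, was at 29.4, 99.3, 132 and 92.9 CPM against 22.6, 30.5, 5.16 and 20.1 CPM, with 3057E high and 3054A inside the asymptomatic range, and rose by 2.19 ± 0.66 (edgeR adjusted p = 0.0493, against 2.18 with all libraries). Itga4, the integrin by which leukocytes leave vessels, was at 159.5, 131, 158 and 164 CPM against 49.5, 107, 27.04 and 22.1 CPM. The late libraries were level and above all others, but 1.33 ± 0.42 did not pass (edgeR adjusted p = 0.0539, against 1.61 with all libraries). The pan-leukocyte gene Ptprc was at 459.5, 482, 584 and 341 CPM against 303, 278, 195 and 153 CPM, with no overlap and 1.01 ± 0.31 without the codes (edgeR adjusted p = 0.0519, against 1.02 with all libraries).

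Of 14 homeostatic microglia genes 0 passed the edgeR test without the codes, with a median log2 fold change of 0.154, which was -0.204 with all libraries. The list level of 3054A, 3054B and 3054C (8.89 to 9.21) lay inside the asymptomatic range (8.65 to 9.37). P2ry12 and Gpr34, described below, had negative values, while a median above 0 means that other members had positive ones without the codes. Of 20 activation genes 9 rose, beside 6.35% of all genes, with a median of 1.43 (1.02 with all libraries). P2ry12, the nucleotide receptor that marks resting microglia, was at 442, 572, 557 and 80.4 CPM in the late and 1048, 621, 1463 and 1168 CPM in the asymptomatic libraries. All late libraries were below all asymptomatic ones, 3057E by far the lowest; -0.97 ± 0.38 without the codes did not pass (edgeR adjusted p = 0.105, against -1.38 with all libraries). Gpr34, a lysophospholipid receptor, was at 132, 168, 229 and 51.8 CPM against 364, 209, 498 and 614 CPM, with 3054C above 3228B, and -1.0 ± 0.50 did not pass (edgeR adjusted p = 0.192, against -1.55 with all libraries). Axl, a receptor for dying cells, was at 552, 504, 815 and 171 CPM against 215, 185, 106 and 136 CPM and rose by 1.92 ± 0.32 (edgeR adjusted p = 0.0133, against 1.68 with all libraries). Itgax, the integrin CD11c, was at 266, 254, 401 and 164 CPM against 112, 102, 67.01 and 64.05 CPM with no overlap and rose by 1.74 ± 0.45 (edgeR adjusted p = 0.0324, against 1.67 with all libraries). Gpnmb, a lysosomal glycoprotein of lipid-laden macrophages, was at 104, 97.6, 127 and 2.38 CPM against 11.6, 11.3, 3.34 and 4.17 CPM. Library 3057E was the lowest of the 8, and the rise was 3.69 ± 0.70 (edgeR adjusted p = 0.0159, against 3.47 with all libraries). Lgals3, galectin-3, was at 111, 238, 397 and 42.7 CPM against 21.9, 46.5, 4.14 and 16.1 CPM and rose by 3.39 ± 0.87 (edgeR adjusted p = 0.0319, against 3.17 with all libraries).

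Lysosomal and lipid genes rose in part. Of 18 phagocyte lysosome genes 7 rose and 0 fell, and of 13 lipid handling genes 4 rose and 0 fell, beside 6.35% and 8.13% of all genes. The medians were 1.21 and 0.914 (0.884 and 0.834 with all libraries). Lipa, the lysosomal lipase, was at 221, 179, 317 and 70.02 CPM against 80.7, 95.0, 81.9 and 78.97 CPM, with little spread among the asymptomatic libraries and 3057E below them all, and rose by 1.51 ± 0.22 (edgeR adjusted p = 0.0111, against 1.23 with all libraries). Ctsh, cathepsin H, rose by 2.04 ± 0.46 (edgeR adjusted p = 0.0233, against 1.49 with all libraries), from 180.2, 184, 128 and 251 CPM to 451, 515, 1015 and 112 CPM, where 3057E was again the lowest. Plin2, which coats lipid droplets, was at 236, 231, 342 and 40.1 CPM against 54.8, 84.4, 26.5 and 34.1 CPM and rose by 2.32 ± 0.38 (edgeR adjusted p = 0.0133, against 2.11 with all libraries). Soat1, which esterifies cholesterol for storage, rose by 1.21 ± 0.18 (edgeR adjusted p = 0.0116, against 1.15 with all libraries), and Acp5, an acid phosphatase, by 3.33 ± 0.92 (edgeR adjusted p = 0.0392, against 3.01 with all libraries).

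Matrix and mesenchymal genes had a high median and few calls, beside a wide spread of the asymptomatic libraries. The level of the 24 genes was 6.52, 8.02, 7.16 and 5.43 against 4.97, 6.48, 3.64 and 3.94, with 3228B high in its group. The median was 2.0 without the codes (1.93 with all libraries), and 3 of 24 rose, beside 6.35% of all genes, among them Anxa2 by 2.38 ± 0.68 (edgeR adjusted p = 0.0422, against 2.20 with all libraries) and the fibronectin receptor subunit Itga5 by 2.09 ± 0.60 (edgeR adjusted p = 0.0422, against 1.96 with all libraries). Of the immediate early genes, which respond within minutes to stimuli and to tissue dissociation, 5 of 21 rose, beside 6.35% of all genes, with a median of 1.39 (1.15 with all libraries). Dusp1, a MAP kinase phosphatase, was at 290.1, 799, 389 and 70.2 CPM against 49.5, 99.5, 84.2 and 131 CPM and rose by 2.69 ± 0.66 (edgeR adjusted p = 0.0273, against 2.08 with all libraries). Fos was at 548, 1417, 1007 and 358 CPM against 251, 468, 267 and 386 CPM and rose by 1.62 ± 0.40 (edgeR adjusted p = 0.0279, against 1.28 with all libraries), in each case with 3057E inside the asymptomatic range. The part of dissociation in the inflammatory genes above was not tested.

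OPC and progenitor genes were low in 3054A, 3054B and 3054C and not in 3057E. Of 17 OPC genes 9 fell and 0 rose without the codes, beside 8.13% of all genes that fell, with a median of -2.06 (-0.80 with all libraries). In 0 of the 9 did 3057E lie on the late side. Pdgfra, the receptor of PDGF, was at 807, 568, 138 and 2757 CPM in the late and 1802, 2191, 3848 and 1141 CPM in the asymptomatic libraries. Library 3054C was the lowest and 3057E the highest but 1, and it fell by 2.33 ± 0.57 without the codes (edgeR adjusted p = 0.0275) against -1.04 ± 0.68 with all libraries (edgeR adjusted p = 0.467). Olig2, a transcription factor of the oligodendrocyte lineage, was at 132, 71.6, 30.3 and 374 CPM against 313, 331, 439 and 194 CPM. It fell by 2.16 ± 0.50 (edgeR adjusted p = 0.024, against -1.04 with all libraries), and its neighbour Olig1 by 2.17 ± 0.55 (edgeR adjusted p = 0.0302, against -1.11 with all libraries). Sox10, a factor of the same lineage, was at 169, 129, 65.7 and 386 CPM against 372, 333, 437 and 186 CPM and fell by 1.61 ± 0.32 (edgeR adjusted p = 0.0179, against -0.80 with all libraries). For these genes the order of the late libraries was the same, from 3057E down to 3054C. Lhfpl3 fell by 2.47 ± 0.51 (edgeR adjusted p = 0.0185, against -1.14 with all libraries).

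Of 13 neural progenitor genes 9 fell and 0 rose without the codes, beside 8.13% of all genes that fell, with a median of -1.85 (-1.09 with all libraries). Sox2, a factor of neural stem cells, was at 24.4, 23.9, 16.2 and 68.01 CPM against 71.5, 73.6, 80.9 and 41.5 CPM, with 3057E inside the asymptomatic range, and fell by 1.77 ± 0.23 (edgeR adjusted p = 0.0098, against -0.99 with all libraries). Sox11 fell by 1.85 ± 0.50 (edgeR adjusted p = 0.0361, against -1.31 with all libraries). Hes5, a Notch target, was the exception among the 9 that fell, at 0, 0.112, 0.262 and 0.298 CPM in the late and 2.62, 1.401, 4.07 and 3.02 CPM in the asymptomatic libraries. It was near 0 in all late libraries, 3057E included, and fell by 4.20 ± 0.80 without the codes (edgeR adjusted p = 0.0158), with -3.88 ± 0.66 in all libraries (edgeR adjusted p = 0.13). Prom1 was also lower in all late than in all asymptomatic libraries, but -1.24 ± 0.40 without the codes did not pass (edgeR adjusted p = 0.0609, against -1.55 with all libraries).

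Large falls without the codes included genes best known from neurons. In the early symptomatic brains Grin1, Fstl5 and Sez6 were lower in surrounding than in glioma cells, by log2 differences of -0.789, -1.20 and -0.951. Among the asymptomatic libraries Grin1 and Fstl5 were lowest in 3229B, where the neuron list was highest (5.34). Which cells gave this RNA was not tested. Grin1, the obligatory subunit of NMDA receptors, was at 13.3, 6.47, 2.45 and 47.4 CPM in the late and 50.1, 48.8, 75.4 and 33.7 CPM in the asymptomatic libraries. It was low in 3054A, 3054B and 3054C alone, and fell by 2.93 ± 0.49 (edgeR adjusted p = 0.0136, against -1.54 with all libraries). Of 15 genes of synapses and glutamate receptors 6 fell and 0 rose, beside 8.13% of all genes that fell, with a median of -1.97 (-0.823 with all libraries), and 3057E lay on the late side in 0 of the 6. Gria1, a subunit of AMPA receptors, fell by 2.17 ± 0.58 (edgeR adjusted p = 0.0355, against -1.65 with all libraries). Fstl5 was at 20.1, 3.57, 2.27 and 178 CPM against 77.5, 72.3, 149.5 and 33.6 CPM, where 3057E was the highest of the 8, and fell by 3.49 ± 0.80 (edgeR adjusted p = 0.0237, against -0.68 with all libraries). Further falls were of Dpp10, a potassium channel partner, by 3.35 ± 0.77 (edgeR adjusted p = 0.0244, against -1.27 with all libraries), of the adhesion gene Cntnap5b by 3.28 ± 0.70 (edgeR adjusted p = 0.02, against -1.35 with all libraries), and of the sialyltransferase St8sia3 by 3.43 ± 0.72 (edgeR adjusted p = 0.0189, against -1.37 with all libraries). Slc22a3, a cation transporter, Plppr1, Sez6, Galnt13, Dcaf12l1 and Arxes1 fell by 3.43, 3.39, 3.06, 2.90, 2.99 and 3.09 (edgeR adjusted p = 0.0136, 0.0162, 0.0142, 0.028, 0.0197 and 0.0098). With all libraries they had -1.24, -1.96, -1.11, -0.65, -1.18 and -1.53. Ndn, a growth suppressor expressed in neurons, was at 13.6, 8.254, 3.23 and 53.6 CPM against 74.2, 63.2, 90.5 and 59.2 CPM. The groups did not overlap, 3057E lying just under the lowest asymptomatic library, and it fell by 3.15 ± 0.45 (edgeR adjusted p = 0.0111, against -1.84 with all libraries).

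Astrocyte genes as a list were lower in all 4 late libraries. Their level (14 genes) was 5.08, 4.36, 3.82 and 4.64 in the late and 6.12, 5.18, 5.95 and 7.29 in the asymptomatic libraries, which did not overlap. Gene by gene, the 4 late libraries all lay below the 4 asymptomatic ones in 2 of the 14, beside 3.17% of all genes. The median log2 fold change was -1.59 with all libraries and -1.56 without the codes, when 3 of 14 fell, beside 8.13% of all genes. Sox9, a glial transcription factor, was at 16.2, 9.82, 18.9 and 12.7 CPM against 49.5, 41.9, 40.99 and 36.3 CPM. All late libraries were below all asymptomatic ones, and it fell by 1.52 ± 0.40 (edgeR adjusted p = 0.033), with -1.54 ± 0.33 in all libraries (edgeR adjusted p = 0.13). Slc6a11, a GABA transporter of astrocytes outside the list, was at 19.7, 5.69, 4.28 and 29.3 CPM against 106, 32.5, 119 and 165 CPM, again with no overlap, and fell by 3.08 ± 0.64 (edgeR adjusted p = 0.0189, against -2.83 with all libraries). Aqp4, the water channel of astrocyte end-feet, was at 42.9, 13.6, 12.1 and 16.2 CPM against 105, 36.2, 76.3 and 143 CPM, where 3054A overlapped 3228B, and -1.62 ± 0.64 did not pass (edgeR adjusted p = 0.106, against -2.08 with all libraries). Of 14 mature oligodendrocyte genes 2 fell and 1 rose, beside 8.13% and 6.35% of all genes, and their median of -1.36 with all libraries was -0.868 without the codes. Mbp, the myelin basic protein, was at 414, 439.5, 336 and 478 CPM against 1365, 437, 864 and 12310.0 CPM, with a log2 fold change of -3.22 ± 0.95 in all libraries (edgeR adjusted p = 0.156) and -1.13 ± 0.55 without the codes (edgeR adjusted p = 0.174). Library 3229B stood far above the rest. Nefl, a neurofilament of axons, was at 2.85, 2.45, 1.57 and 0.893 CPM against 7.42, 4.45, 5.01 and 84.1 CPM, with -3.76 ± 1.12 in all libraries (edgeR adjusted p = 0.158) and -1.26 ± 0.79 without the codes (edgeR adjusted p = 0.287).

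A pair of vessel genes was lower in all 4 late libraries and did not reach the threshold. They were the 2 of 15 endothelial genes tested whose groups did not overlap, beside 3.17% of all genes that lay below. The median log2 fold change of the 15 was near 0, at -0.0355 without the codes and -0.203 with all libraries. Tek, the angiopoietin receptor of endothelium, was at 2.496, 3.57, 2.27 and 3.497 CPM against 9.45, 5.19, 14.5 and 8.88 CPM. The groups did not overlap, and the value without the codes was -1.78 ± 0.56 (edgeR adjusted p = 0.0564, against -1.67 with all libraries). Itm2a, at 10.6, 15.3, 15.5 and 17.04 CPM against 32.99, 21.8, 44.8 and 83.95 CPM, was also free of overlap, with -1.24 ± 0.39 (edgeR adjusted p = 0.0527, against -1.67 with all libraries).

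**Figure D4:**
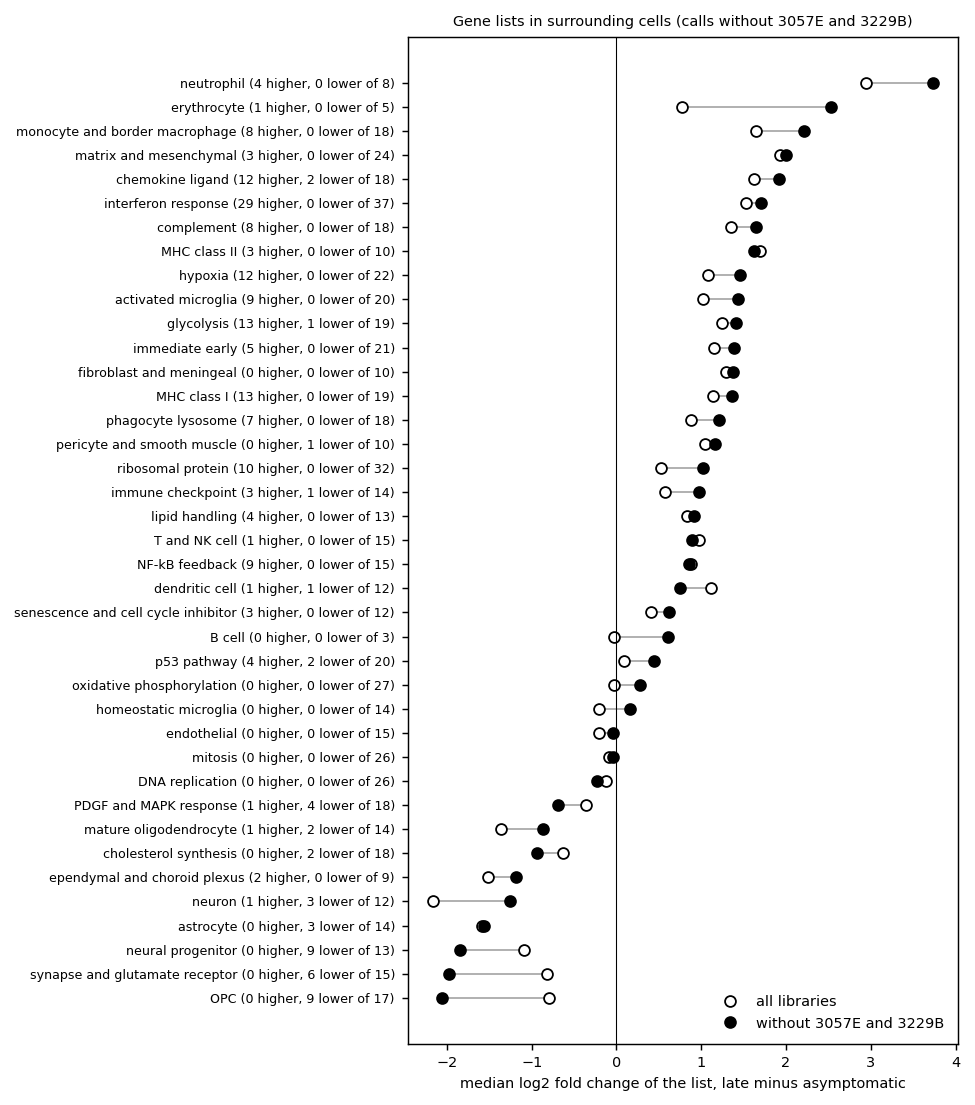
Median log2 fold change, late minus asymptomatic, of the tested genes of 39 lists (vertical axis, with the number called higher and lower without 3057E and 3229B), with all libraries (open points) and without the 2 codes (filled points). Lines join the 2 values of a list; neutrophil genes were highest at 3.73 and OPC genes lowest at -2.06 without the codes, and the OPC median moved from -0.80.

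The called genes were set beside a measure that no stage contrast entered, the difference between surrounding and glioma cells of the 4 early symptomatic brains. Of the 1133 genes that rose, 94.1% were higher in surrounding than in glioma cells there, with a median log2 difference of 1.18, and 55.4% were over 2-fold higher, beside 12.4% of all tested genes. Of the 1450 that fell, 94.2% were lower in surrounding than in glioma cells, with a median of -0.612, and 5.24% were over 2-fold lower, beside 0.981% of all tested genes. Over all tested genes 47.4% were higher in surrounding cells. The OPC level went with the stage in the 6 libraries, at 7.80 or less in the late and 8.59 or more in the asymptomatic ones, so that the 2 cannot be told apart there. With the OPC level of each library as a term in the fit without the codes, 1 gene was called higher, the small nuclear RNA Rn7sk (3.36 ± 0.29, edgeR adjusted p = 0.00446; named because it was the 1 gene called), and 0 lower. The interferon median was then 0.676, the hypoxia median 1.12 and the synapse median -0.0478.

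**Figure D5:**
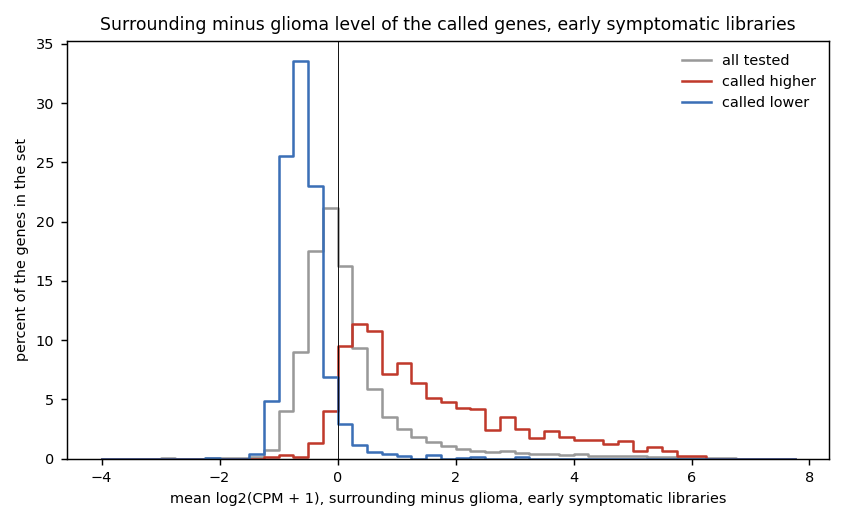
Difference in mean log2(CPM + 1) between surrounding and glioma cells of the 4 early symptomatic brains (horizontal axis; values past the ends are drawn in the last bins), as the percent of each set of genes (vertical axis). The 1133 genes called higher in late surrounding cells lie mostly to the right of 0 (94.1%) and the 1450 called lower mostly to the left (94.2%).

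Whether stage differences of the surrounding cells differed from those of glioma cells was tested as an interaction. With all libraries 0 of 18810 genes passed (0%; edgeR quasi-likelihood test), 1585 had an unadjusted p under 0.05, and DESeq2 called 18. Without the 2 codes 936 of 19046 passed (4.91%), 497 with a more positive and 439 with a more negative difference in surrounding cells. Leaving out 3057E alone gave 1435. With the tumour code as a block, since both libraries of a code come from 1 brain, the 936 became 2343 (970 and 1373), and with all libraries the count stayed at 0. By Xist and Ddx3y the 2 libraries of code 3108D, and those of 3109D, were of unlike sex, and their part in the block was not tested.

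Without the codes interferon genes passed this test in 2 of 37 cases, beside 4.91% of all genes, with a median difference of 0.566, and hypoxia genes in 0 of 22, with a median of -0.617. The glioma libraries showed stage differences of their own in hypoxia genes, at 5.25, 5.30 and 5.45 in 3054A, 3054B and 3054C and at 3.30 to 3.79 in 3228A, 3228B and 3228D. Activated microglia genes passed in 13 of 20 cases and homeostatic microglia genes in 7 of 14, all more positive in surrounding cells, with medians of 3.69 and 2.55. Beside them, the homeostatic level in glioma libraries was 2.47 to 2.80 in 3054A, 3054B and 3054C and 3.87 to 4.30 in 3228A, 3228B and 3228D, so that the glioma libraries contribute to these differences. Ptprc had 3.82 ± 0.60 (edgeR adjusted p = 0.00296) and Hilpda 3.36 ± 0.61 (edgeR adjusted p = 0.00572). Among OPC and progenitor genes Sox2 had -2.02 ± 0.34 (edgeR adjusted p = 0.00426) and Sox10 -2.05 ± 0.41 (edgeR adjusted p = 0.0095), more negative stage differences in surrounding than in glioma cells. Cdkn2a, a cell cycle inhibitor, was at 9.39, 22.9, 14.3 and 13.5 CPM against 6.08, 7.09, 2.11 and 2.22 CPM in surrounding cells and rose there by 1.64 ± 0.47 (edgeR adjusted p = 0.0424, against 1.80 with all libraries). Its interaction was -2.11 ± 0.59 (edgeR adjusted p = 0.0468), a smaller stage difference than in glioma cells.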

How the data were processed

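Cells of 12 gliomas were sorted into glioma and surrounding cells, 1 library each. Per the submitters' processing notes the authors used STAR 2.7.5c and RSEM 1.3.1 on GRCm38; what was deposited are RSEM expected counts, here rounded to whole numbers (library totals moved by at most 95.2 counts). Annotation release and strand setting are not given in the sources used here, and reads of overlapping or antisense genes may be mixed. The test was run in edgeR 4.0.16 (R 4.3.3) with TMM, filterByExpr with a minimum count of 10, robust quasi-likelihood test, group means of the 12 surrounding libraries (interaction: all 24), adjusted p under 0.05 over all genes tested. Errors are standard errors of log2 fold changes derived from F. CPM were scaled by TMM over 24 libraries; levels add a pseudocount of 1. Replicates are separate brains by their codes. Chi-square per degree of freedom between libraries of a group was at least 31.9, so none were copies. The p-values measure the spread between these brains. In the fit without the codes each compared group holds a single code prefix, so spread between prefixes within those groups does not enter. With 3 or 4 libraries a group the precision is limited by their spread.

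Named genes were the 15 largest rises and falls among called genes without overlap and with mean log2 CPM of at least 3, up to 4 genes with the smallest p of each of 39 lists, a set of marker genes and the leading genes of the interaction, of which a selection is described; a symbol with 2 identifiers was left out, and some named genes are not reported here. Members and lists were chosen with earlier results of these data known. Of the identifiers 98.6% were found in GENCODE M21, which gave coordinates. Both libraries of a code come from 1 brain per the labels; their deviations from group means correlated over 0.1 in 9 of 12 codes (0.0256 to 0.489). The fits were tested on simulated data. Alternatives were DESeq2 1.42.0, limma 3.58.1 voom with sample weights, other scalings, filters and fits, a sex term, an OPC level term, a test against 1.5-fold and each library left out.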

Additional observations from a re-analysis of the deposited data

Results flagged for a closer look

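Among the levels of 39 lists in the 2 groups, 78 in all, 4 had a library far from the other 3 of its group. Chance gives about 1 in 20 for a single level. The levels share their libraries and are not independent, so the count of 4 cannot tell whether chance gave them. Neuron genes were at 5.343 in 3229B against 2.91 to 3.22 in the other asymptomatic libraries. Homeostatic microglia genes were at 6.472 in 3057E against 8.89 to 9.21 in the other late libraries. In 3228D activated microglia genes were at 6.559 against 7.08 to 7.11, and MHC class II genes at 4.324 against 5.87 to 6.13. Library 3228D is the one without which the fit without 3057E and 3229B called 0 genes.

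Among the named genes 26 had a stage difference in surrounding cells that differed from that in glioma cells without codes 3057E and 3229B (edgeR interaction test); the values that follow are log2 differences of the 2 stage differences. More negative in surrounding cells were Hes5 (-3.54), Arxes1 (-2.39), Mdk (-2.25), Tmem178 (-2.17), Cdkn2a (-2.11), Sox10 (-2.05), Olig2 (-2.02), Sox2 (-2.02), Zfp580 (-1.96) and Fscn1 (-1.39). These include OPC and progenitor factors and the heparin-binding growth factor Mdk. More positive were P2ry12 (1.75), Plin2 (2.0), Siglech (2.84), Cd274 (3.02), Hilpda (3.36), Ctsh (3.46), Ptprc (3.82), Itgax (3.87), Pqlc3 (3.89), Lgals3 (4.14), Hmox1 (4.35), Adamtsl4 (4.72), H2-DMb1 (4.87), Gpnmb (4.94), Stat4 (5.47) and Adam8 (6.83). P2ry12 had a positive value although it was lower in late than in asymptomatic surrounding cells. Counts of microglial transcripts in the glioma libraries also differed by stage, and their part in these values was not tested.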

How the results depend on the processing

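The count of 0 called genes with all libraries became 120 higher and 106 lower with all 24 libraries in the fit, 703 and 299 with DESeq2, 2049 and 2057 with limma voom, 2 and 2 with no count filter, and 1133 and 1450 without codes 3057E and 3229B. Leaving out 1 library gave 0 to 1368 higher and 0 to 1594 lower. Without the 2 codes the counts of 1133 and 1450 became 2277 and 2276 with DESeq2, 3026 and 3005 with voom, 440 and 652 with a sex term, 1 and 0 with an OPC level term and 175 and 304 in a test against 1.5-fold. Leaving out 1 more library gave 0 to 1937 and 0 to 2315. Of the 2583 called genes 2581 were also called by DESeq2, 2545 by voom, 1076 with the sex term and 0 with the OPC term. For 119 genes followed through the other settings without the codes, 536 of 2257 values lost the call of the main fit and 48 gained one. Plac8 and Flt3, both near the threshold, were called in 7 and 8 of 20 settings, the main fit included. The interaction count of 0 became 18 with DESeq2, 936 without the codes and 0 to 1435 with 1 library left out. With the tumour code as a replicate block the 936 became 2343, and the 0 of all libraries did not change.

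Between the fits with all libraries and without the codes the median turned from -0.204 to 0.154 for homeostatic microglia, from -0.028 to 0.604 for B cell and from -0.0276 to 0.275 for oxidative phosphorylation genes. With all libraries the B cell median was 0.734 with voom and ran from -0.293 without 3228B to 0.788 without 3229B, and with the OPC term the erythrocyte median was -0.682, immune checkpoint -0.186, phagocyte lysosome -0.128 and ribosomal protein -0.196. Without the codes the B cell median was -0.00556 with no filter; with the OPC term it was -0.192, homeostatic microglia -0.451, dendritic cell -0.287, ependymal and choroid plexus 0.384, oxidative phosphorylation -0.399 and ribosomal protein -0.0639. Ttr turned to -2.77 with the OPC term, and with 1 library left out it ran from -1.84 (without 3054C) to 7.74 (without 3229B). Pdgfb turned to -0.82 with the OPC term, and from -0.22 (without 3054C) to 0.43 (without 3057E) with 1 library left out, including -0.02 without 3228B and -0.05 without 3229B. Without the codes it was -0.52 with the OPC term and -0.0034 (without 3228B) to 0.50 (without 3228A) with 1 library left out. The causes were not tested.

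Limits: 3 or 4 libraries a group, with 1 asymptomatic library deciding whether any gene is called. Stage, age and code prefix go together, and without the codes each compared group holds a single prefix. Libraries held 9080000 counts or more, and the parts of depth and of the spread between brains in the error were not tested.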

Other observations

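Lists of growth and division genes differed in their share of calls. Of 26 mitosis and 26 DNA replication genes 0 passed the edgeR test without the codes, with medians of -0.0356 and -0.227 (-0.0899 and -0.127 with all libraries). Of 18 genes of the PDGF and MAPK response 4 fell and 1 rose, beside 8.13% and 6.35% of all genes, and 3229B, an asymptomatic library, lay on the late side of the midpoint for all 4. Pdgfb, which the tumours overexpress and whose transgene cannot be told from the endogenous gene here, was at 43.6, 58.7, 81.1 and 12.8 CPM in the late and 68.5, 32.6, 55.02 and 26.03 CPM in the asymptomatic surrounding libraries. The groups overlapped, and 3057E was the lowest (without the codes 0.26 ± 0.32, edgeR adjusted p = 0.609, against 0.12 with all libraries). Etv4, an ETS factor downstream of receptor tyrosine kinases, was at 27.3, 31.6, 9.96 and 62.6 CPM against 63.8, 70.2, 63.01 and 31.4 CPM and fell by 1.48 ± 0.37 (edgeR adjusted p = 0.0298, against -0.77 with all libraries), while the ERK phosphatase Dusp6 rose by 0.72 ± 0.20 (edgeR adjusted p = 0.0393, against 0.54 with all libraries). Of 20 genes of the p53 pathway 4 rose and 2 fell, beside 6.35% and 8.13% of all genes. Pmaip1, a promoter of cell death, was at 24.5, 67.6, 61.7 and 27.4 CPM against 12.3, 17.9, 10.3 and 11.9 CPM, without overlap, and rose by 1.95 ± 0.46 (edgeR adjusted p = 0.0255, against 1.79 with all libraries). Btg2, an inhibitor of division, was also free of overlap and rose by 1.39 ± 0.36 (edgeR adjusted p = 0.0328, against 1.28 with all libraries), and the stress cytokine Gdf15 rose by 3.44 ± 0.70 (edgeR adjusted p = 0.0184, against 2.64 with all libraries) with 3057E at the asymptomatic level.

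Ribosomal protein genes were higher without the codes in 10 of 32 cases, beside 6.35% of all genes, with a median of 1.02 (0.521 with all libraries), and 3229B, an asymptomatic library, lay on the late side of the midpoint in all 10. Rps19 was at 327, 498, 751 and 237 CPM against 183, 258, 186 and 409.5 CPM and rose by 1.36 ± 0.36 (edgeR adjusted p = 0.0349, against 0.79 with all libraries). Of 18 cholesterol synthesis genes 2 fell, among them Cyp51 by 1.48 ± 0.43 (edgeR adjusted p = 0.0434, against -1.10 with all libraries). The largest fold among named genes was of Ttr, the thyroxine carrier made by choroid plexus and 1 of 2 genes of 9 of that list that rose, at 282, 4.91, 1784 and 0.149 CPM in the late and 3.21, 1.73, 2.47 and 1337 CPM in the asymptomatic libraries. Single libraries of each group were high, 3054C, 3054A and 3229B, and its log2 fold change was 8.13 ± 2.28 without the codes (edgeR adjusted p = 0.0407) and 0.53 ± 2.26 with all libraries (edgeR adjusted p = 0.923). The ependymal and choroid plexus list as a whole went the other way, with a median of -1.19 without the codes (-1.51 with all libraries). In the fit without the codes 0 of its 9 genes fell. Of the lists not described so far, 3 of 12 neuron genes fell and 1 rose, 1 of 5 erythrocyte genes and 3 of 12 senescence genes rose, and 0 of 3 B cell, 0 of 10 fibroblast and meningeal and 0 of 27 oxidative phosphorylation genes passed the edgeR test without the codes, beside 6.35% of all genes that rose and 8.13% that fell.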
